A study of Mus musculus with 12 samples.

Results

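The glycolysis and lactate dehydrogenase genes are 10 genes, Pfkl, Aldoa, Tpi1, Gapdh, Pgk1, Pgam1, Eno1, Pkm, Ldha and Ldhb, chosen by symbol from the 48709 genes listed in each of 3 tables. All 10 were listed and all 10 were among the 17833 genes that the authors tested. RNA came from CD8 T cells of wild type C57BL/6 mice, at post natal day 91 per the labels, bearing TRAMP-C2, a mouse prostate tumour line. Live CD45+CD3+CD8+ cells were taken from draining lymph nodes by sorting, and had to stain for Spas-1, a tumour antigen of this line, and not for Spas-2. One arm received anti-CTLA-4, another anti-PD-1 DANA, another both antibodies (Combo), and the last an isotype control antibody (Isotype), and all arms, Isotype included, carried the tumour. Both antibodies block inhibitory receptors of T cells, and DANA is the name of a form with a mutated Fc part. Doses were given on days 3, 6 and 9 in the sample labels, and on days 3, 6 and 8 in the series text, with harvest on day 28, counted from tumour injection in the series text and from treatment in the sample labels. Cells of 5 mice were pooled per arm and split into 3 libraries, 12 in all. Each arm is therefore 1 pool of animals, arm and pool cannot be told apart, and the p-values cover the spread among splits of a pool, not among mice.

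Glycolysis turns glucose into pyruvate in the cytosol and yields ATP and building blocks without oxygen. Phosphofructokinase commits sugar phosphate to the pathway, aldolase and triose phosphate isomerase make and interconvert the 3-carbon sugars, and the later enzymes, from glyceraldehyde phosphate dehydrogenase to pyruvate kinase, recover ATP and NADH. Lactate dehydrogenase is a tetramer of LDHA and LDHB subunits, of which LDHA-rich forms are known for making lactate from pyruvate and LDHB-rich forms for the reverse. CD8 T cells are known to raise glycolysis and Ldha when they are activated and to rely more on mitochondrial respiration when at rest.

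Upstream sequences are shown for the genes with the largest fold changes in either direction, Pfkl and Ldhb, and for Ldha, which encodes the partner subunit of LDHB. Each runs over the 250 bases before the first RefSeq start site listed for the gene (GRCm38.p6), and capitals mark ACGTG or GCGTG on either strand, the core letters of hypoxia response elements, and CACGTG, the E-box, which holds ACGTG.
Pfkl, chr10:78009808-78010057, minus strand: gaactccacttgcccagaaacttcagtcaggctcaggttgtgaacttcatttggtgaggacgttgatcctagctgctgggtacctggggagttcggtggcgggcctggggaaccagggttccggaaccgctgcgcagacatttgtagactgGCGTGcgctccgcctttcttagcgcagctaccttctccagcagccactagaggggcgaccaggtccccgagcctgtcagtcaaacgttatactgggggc
Ldha, chr7:46845554-46845803, plus strand: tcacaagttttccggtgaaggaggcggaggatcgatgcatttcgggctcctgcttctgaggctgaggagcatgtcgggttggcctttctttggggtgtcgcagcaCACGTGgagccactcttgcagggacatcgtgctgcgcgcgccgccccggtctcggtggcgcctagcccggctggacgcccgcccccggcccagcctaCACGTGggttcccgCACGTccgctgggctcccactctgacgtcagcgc
Ldhb, chr6:142507958-142508207, minus strand: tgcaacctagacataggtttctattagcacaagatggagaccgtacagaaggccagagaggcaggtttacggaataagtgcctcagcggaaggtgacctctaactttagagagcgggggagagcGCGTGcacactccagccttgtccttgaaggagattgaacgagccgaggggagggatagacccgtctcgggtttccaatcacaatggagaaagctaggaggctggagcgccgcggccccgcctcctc
Ldha held 2 E-boxes and Pfkl and Ldhb 1 GCGTG each. Of the 10 genes, 7 had ACGTG or GCGTG in this window, against 38.6% of all 27025 upstream windows of this length, and 1 had CACGTG, against 6.05%. These matches describe letters and not binding. Of the windows shown, those of Pfkl and Ldha lie inside the span that the authors list for the gene, and that of Ldhb lies just outside it.

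The tables hold, for each treatment against Isotype, a log2 fold change (positive where the treated arm was higher), a p-value, its Benjamini-Hochberg adjusted form over all listed genes, and the larger of the 2 group means in RPKM, reads per kilobase of exon, scaled to library size. A call is an adjusted p under 0.05, and each ± on a fold change is a standard error worked out from the deposited p-value. Because each table shows the larger mean, the 3 tables together show the Isotype mean and every treated mean above it. Treated means below Isotype were derived from the fold change and are given as derived. Ranges beside them span 95% of genes whose 2 means are both shown, at 5 RPKM or more in Isotype. In those genes the treated mean was the larger, while means were derived where the treated mean was the smaller. Isotype means below all 3 treated means, as for Ldha, were derived too. The range given for Ldha in Isotype runs over the estimates from the 3 tables and leaves out that spread among genes, so it is too narrow. Library depth, recovered from the steps that single reads leave in the RPKM values, ran from 14729713 to 42556869 reads. The sample labels instead state about 48710 reads for each library, close to the 48709 genes listed, and all reads and RPKM given per library rest on the recovered sizes. The authors' scaling left the median tested gene below 0 on the log2 scale, at -0.62 in the anti-CTLA-4 table, -0.45 in the anti-PD-1 DANA table and -0.42 in the Combo table. Scaling by library size would add 0.94, 0.82 and 0.11 to every fold change in these tables. All 3 tables use the same Isotype libraries, so their fold changes are not independent of each other.

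All 8 CD8 T cell markers were detected in every arm, and none was called in any comparison. Their lowest level was 60.6 RPKM, a derived mean in Combo. B cell markers were present too, summing to 892 RPKM over 8 genes in anti-CTLA-4, 288 in anti-PD-1 DANA, 287 in Combo and 366 in Isotype, with 2 of the 8 called higher after anti-CTLA-4. Of 3 CD4 T cell markers, summing to 5.89, 0.62, 0.291 and 3.66 RPKM in the same order, 1 was called higher after anti-CTLA-4. All of these B cell and CD4 T cell sums rest in part on derived means, except the B cell sum of anti-CTLA-4. The highest B cell entry was itself derived in anti-PD-1 DANA (121 RPKM) and in Combo (84.4 RPKM). Of 7 myeloid markers 6 were tested and Adgre1 was at 0. Of these 6, 3 were called lower after anti-CTLA-4 (C1qa, Mpeg1 and Fcgr3), 1 higher (Csf1r) and 1 lower (Fcgr3) after anti-PD-1 DANA, and 2 lower after Combo (Lyz2 and Fcgr3). Lyz2, the most abundant, had 92.1 RPKM in anti-CTLA-4, 54.6 in anti-PD-1 DANA, a derived 2.76 in Combo and 49.1 in Isotype. In such bulk samples fewer cells of a type and less RNA per cell cannot be told apart, and the part of other cells in the values below was not tested.

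Across the 10 genes, 1 gene passed the authors' test against Isotype. Ldhb, the LDHB subunit gene, was the 1 member called after anti-CTLA-4 and the 1 called after Combo, lower in both. In Isotype 98.9% of the Ldhb level came from 1 library. After anti-CTLA-4 4.23% of tested genes were called (2.74% higher, 1.49% lower), and after Combo 7.53% (3.94% higher, 3.59% lower). No member was called after anti-PD-1 DANA, where 3.75% of tested genes were called (2.43% higher, 1.32% lower) and 1 member, Eno1, had an unadjusted p under 0.05 in the authors' test. Pfkl, the liver-type phosphofructokinase gene, had the highest fold change of the 10 after anti-CTLA-4 and after anti-PD-1 DANA in the authors' deposited tables, and was called lower in Combo than in anti-CTLA-4. The median log2 fold change of the 10 genes was -0.63 after anti-CTLA-4, -0.49 after anti-PD-1 DANA and -1.01 after Combo, against the medians over all tested genes given above.

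**Figure D1:**
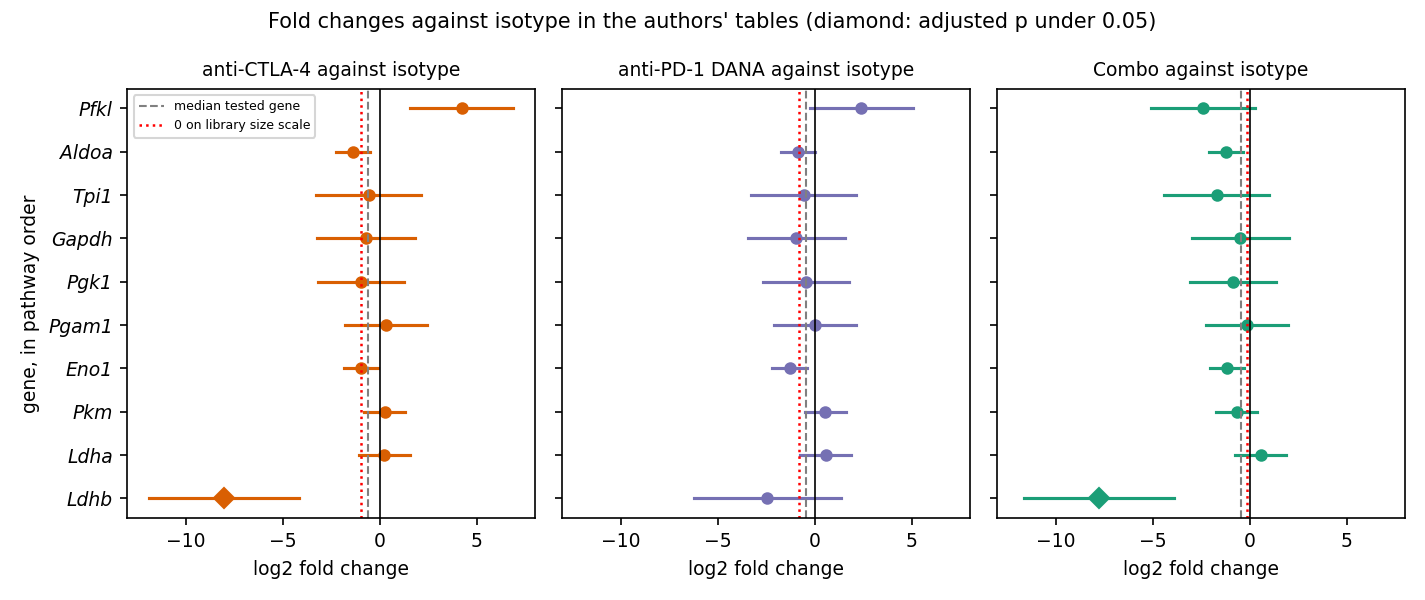
Log2 fold change of each gene against Isotype in the authors' deposited tables, with its 95% interval from the implied standard error, for the 3 treatments; the dashed line is the median tested gene and the dotted line is 0 on the library size scale. Ldhb at -8.02 after anti-CTLA-4 and -7.77 after Combo carries the only diamonds, and Pfkl lies at 4.23 and 2.40 after the single antibodies and at -2.40 after Combo.

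Pfkl (chromosome 10, 77986947 to 78010083, GRCm38) encodes the enzyme that commits fructose phosphate to glycolysis. Its level was 11.99, 35.4 and 19.3 RPKM in the anti-CTLA-4 libraries, against 0.294, 0.0464 and 1.38 RPKM in the Isotype libraries, which corresponds to 6248 reads in all in anti-CTLA-4 and 236 in Isotype. Every anti-CTLA-4 library lay above every Isotype library, and the mean was 22.2 ± 11.96 RPKM in anti-CTLA-4 and 0.575 ± 0.712 RPKM in Isotype (SD over 3 libraries). One Isotype library held 80.3% of that arm's level. An exact two-sided permutation test over the libraries gave p = 0.1, the smallest that 3 against 3 allows. Pfkl stood at 4.23 ± 1.35 on the log2 scale in the authors' deposited table with an adjusted p of 0.0781, which is not a call. Adjusted over the tested genes alone, the same p-value became 0.0286, and with library size scaling the fold change was 5.18 with an adjusted p of 0.011, so this call turns on the adjustment and the scaling.

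After anti-PD-1 DANA the 3 libraries held 8.27, 6.92 and 1.89 RPKM of Pfkl, again each above all Isotype libraries, with a mean of 5.69 ± 3.36 RPKM in anti-PD-1 DANA and 0.575 ± 0.712 in Isotype (SD over 3 libraries). The exact two-sided permutation p was again 0.1. In the authors' deposited table the log2 fold change was 2.40 ± 1.35 (adjusted p = 0.779). In Combo the fold change of Pfkl was -2.40 ± 1.37 in the authors' deposited table (adjusted p = 0.817). This gives a derived mean of 0.118 RPKM (range 0.105 to 0.128), below the 0.575 RPKM of Isotype. That Isotype level is under the 5 RPKM minimum of the genes behind the range, so the range may be too narrow for Pfkl.

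Treated arms were then compared through the difference of their fold changes, with Benjamini-Hochberg adjustment over all listed genes. From the authors' fold changes, Pfkl was lower in Combo than in anti-CTLA-4 by a log2 difference of -6.63 ± 1.36 (adjusted p = 0.00156), the 1 member called in that comparison, where 0.869% of tested genes were called (0.415% higher, 0.454% lower). With the authors' errors added up in full, as an upper bound, this call was lost (adjusted p = 1). Combo against anti-PD-1 DANA gave -4.79 ± 1.36 for Pfkl from the authors' fold changes (adjusted p = 0.113), and 0.443% of tested genes were called there (0.191% higher, 0.252% lower). With library size scaling in place of the authors' scaling that difference was -5.50 and passed (adjusted p = 0.0211). Anti-CTLA-4 against anti-PD-1 DANA called no member and no gene at all (0%), and 1 member, Ldhb, had an unadjusted p under 0.05.

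**Figure D2:**
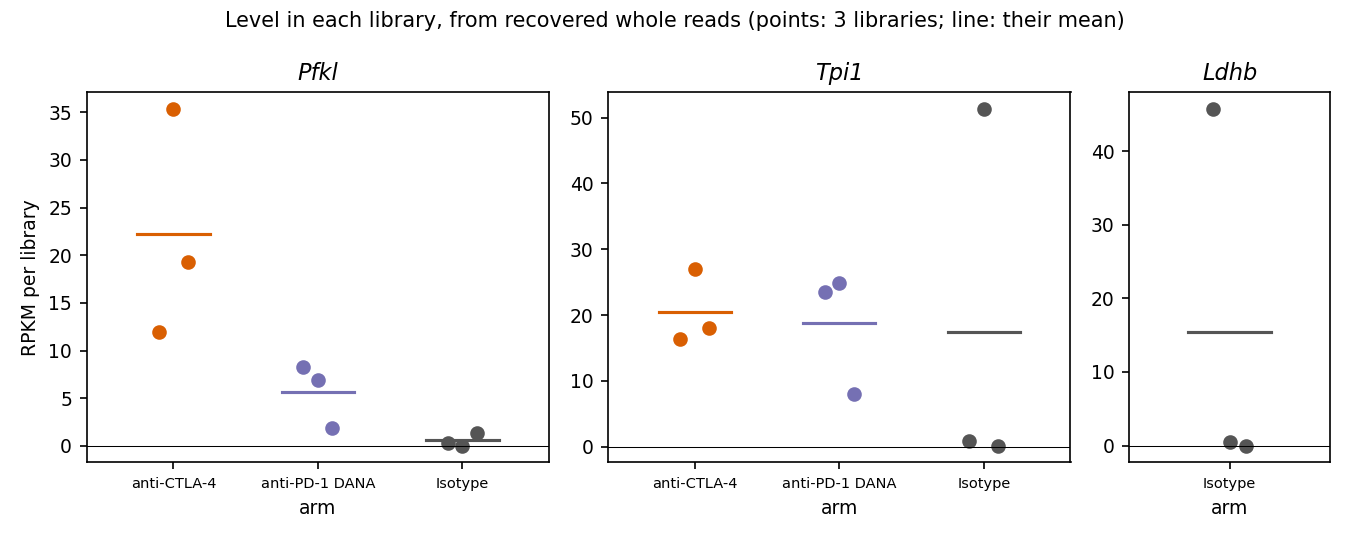
RPKM in each library, from whole reads recovered from the group means, for Pfkl and Tpi1 in the single-antibody arms and Isotype and for Ldhb in Isotype; points are libraries and lines are means. The Pfkl libraries of both treated arms lie above all Isotype libraries, while the Isotype means of Tpi1 and Ldhb each rest on 1 library, at 51.3 and 45.8 RPKM.

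The other phosphofructokinase genes gave values of a different order. Pfkp, the platelet-type enzyme, had larger group means of 5.22, 5.85 and 7.33 RPKM in the tables of anti-CTLA-4, of anti-PD-1 DANA and of Combo, with log2 fold changes of -0.09, 0.19 and 1.25 in the authors' deposited tables. Pfkm, the muscle-type enzyme, reached 3.27 RPKM in anti-CTLA-4 and had 8.17 there on the log2 scale (adjusted p = 0.0837), and stood at 0.87 after anti-PD-1 DANA and 7.23 after Combo (adjusted p = 0.134) in the authors' deposited tables. Neither was called.

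Aldoa, fructose-bisphosphate aldolase A, was among the more abundant members, at 88.9 RPKM in Isotype. Its derived means were 65.8 RPKM (58.0 to 70.7) in anti-CTLA-4, 87.2 (77.6 to 93.4) in anti-PD-1 DANA and 42.0 (37.5 to 45.5) in Combo. The authors' deposited tables gave log2 fold changes of -1.38 ± 0.45 after anti-CTLA-4 (adjusted p = 0.0863), -0.84 ± 0.45 after anti-PD-1 DANA (adjusted p = 0.665) and -1.19 ± 0.45 after Combo (adjusted p = 0.16). None was a call as deposited. Adjusted over the tested genes alone, the anti-CTLA-4 value passed at 0.0316. On library size scaling the 3 fold changes shrank to -0.43, -0.03 and -1.08.

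Tpi1, triose phosphate isomerase, had 16.4, 27.0 and 18.0 RPKM in the anti-CTLA-4 libraries, against 0.812, 51.3 and 0.193 RPKM in the Isotype libraries. In anti-PD-1 DANA it had 23.5, 24.9 and 8.06 RPKM. Every single-antibody library held Tpi1 at 8.06 RPKM or more, while 1 Isotype library held 98.1% of its arm's level, and the ranges of these 3 arms overlapped. In Combo the derived mean was 5.86 RPKM (5.24 to 6.35), with no library values recovered. The mean was 20.5 ± 5.73 RPKM in anti-CTLA-4, 18.8 ± 9.36 in anti-PD-1 DANA and 17.4 ± 29.3 in Isotype (SD over 3 libraries). Its log2 fold changes of -0.56 ± 1.38, -0.55 ± 1.38 and -1.68 ± 1.38 under anti-CTLA-4, anti-PD-1 DANA, then Combo in the authors' deposited tables were not called (adjusted p = 1 each), and the first and second changed sign on library size scaling, to 0.38 and 0.26.

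Gapdh, glyceraldehyde-3-phosphate dehydrogenase, which makes the NADH that lactate dehydrogenase uses, had 11.9 RPKM in anti-CTLA-4, a derived 9.39 in anti-PD-1 DANA, a derived 7.92 in Combo and 10.2 in Isotype. The authors' deposited tables gave log2 fold changes of -0.70 ± 1.28, -0.94 ± 1.28 and -0.48 ± 1.28 (adjusted p = 1 each), and the value for anti-CTLA-4 changed sign to 0.25 on library size scaling. Another 76 listed genes, 73 of them annotated pseudogenes, align to Gapdh mRNA over 200 bases or more at 95% identity or more, and their larger group means summed to 6.08 RPKM in the anti-CTLA-4 table. How reads with several matches were counted is not given in the sources used here, so Gapdh levels are uncertain.

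Pgk1, phosphoglycerate kinase, which recovers the first ATP, had a derived 26.2 RPKM (23.1 to 28.2) in anti-CTLA-4, 33.3 in anti-PD-1 DANA, a derived 15.6 (13.9 to 16.9) in Combo and 26.2 in Isotype. Fold changes of -0.94 ± 1.13, -0.43 ± 1.13 and -0.85 ± 1.13 on the log2 scale in the authors' deposited tables did not pass (adjusted p = 1 each), and on library size scaling the anti-CTLA-4 value became 0.0035 and the anti-PD-1 DANA value 0.39. Pgk1 could share reads with a copy: Pgk1-rs7, a processed pseudogene identical to its mRNA over 1255 bases, was listed at 15.9 RPKM in Isotype. The copy's log2 fold changes were -1.26, -0.83 and -0.46 in the authors' deposited tables of anti-CTLA-4, of anti-PD-1 DANA and of Combo, and the level of Pgk1 is uncertain by what the pair shares.

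Pgam1, phosphoglycerate mutase, was at 53.5 RPKM in anti-CTLA-4, 38.4 in anti-PD-1 DANA, a derived 21.1 in Combo and 21.6 in Isotype, where the value shown could also be the Combo mean. The ratio of means was 2.48 for anti-CTLA-4 over Isotype and 1.78 for anti-PD-1 DANA over Isotype. On the authors' scale these were log2 fold changes of 0.33 ± 1.08 and 0.00 ± 1.08, and Combo stood at -0.14 ± 1.08, in the deposited tables (adjusted p = 1 each). The spread implied for this gene is wide enough that a 95% interval after anti-CTLA-4 ran from -1.78 to 2.44.

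Eno1, enolase, had the highest level of the 10 in Isotype, 90.2 RPKM, with Aldoa close behind at 88.9. Its derived means were 89.9 RPKM (79.3 to 96.6) in anti-CTLA-4, 65.0 (57.9 to 69.6) in anti-PD-1 DANA and 43.2 (38.6 to 46.8) in Combo. The authors' deposited tables held log2 fold changes of -0.95 ± 0.45 (adjusted p = 0.481), -1.29 ± 0.45 (adjusted p = 0.136) and -1.17 ± 0.45 (adjusted p = 0.186). Eno1 was thus the member with the lowest p after anti-PD-1 DANA, and it passed there when adjusted over tested genes alone (0.0498). On library size scaling its fold change was -0.47 after anti-PD-1 DANA and -1.06 after Combo, and after anti-CTLA-4 it lay at 0.00 to the second decimal.

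Pkm, pyruvate kinase M, which makes pyruvate and recovers the last ATP, was at 109 RPKM in anti-CTLA-4, 123 in anti-PD-1 DANA, a derived 33.3 (29.8 to 36.1) in Combo and 49.2 in Isotype. The means of the single-antibody arms were 2.22 and 2.51 times that of Isotype. On the authors' scale the log2 fold changes were 0.26 ± 0.54, 0.56 ± 0.54 and -0.67 ± 0.54 under anti-CTLA-4, anti-PD-1 DANA, then Combo in the deposited tables, none of them called (adjusted p = 1 each). Combo against anti-PD-1 DANA gave a log2 difference of -1.23 ± 0.54 for Pkm from the authors' fold changes, with an unadjusted p of 0.0228 that did not hold after adjustment (adjusted p = 1).

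**Figure D3:**
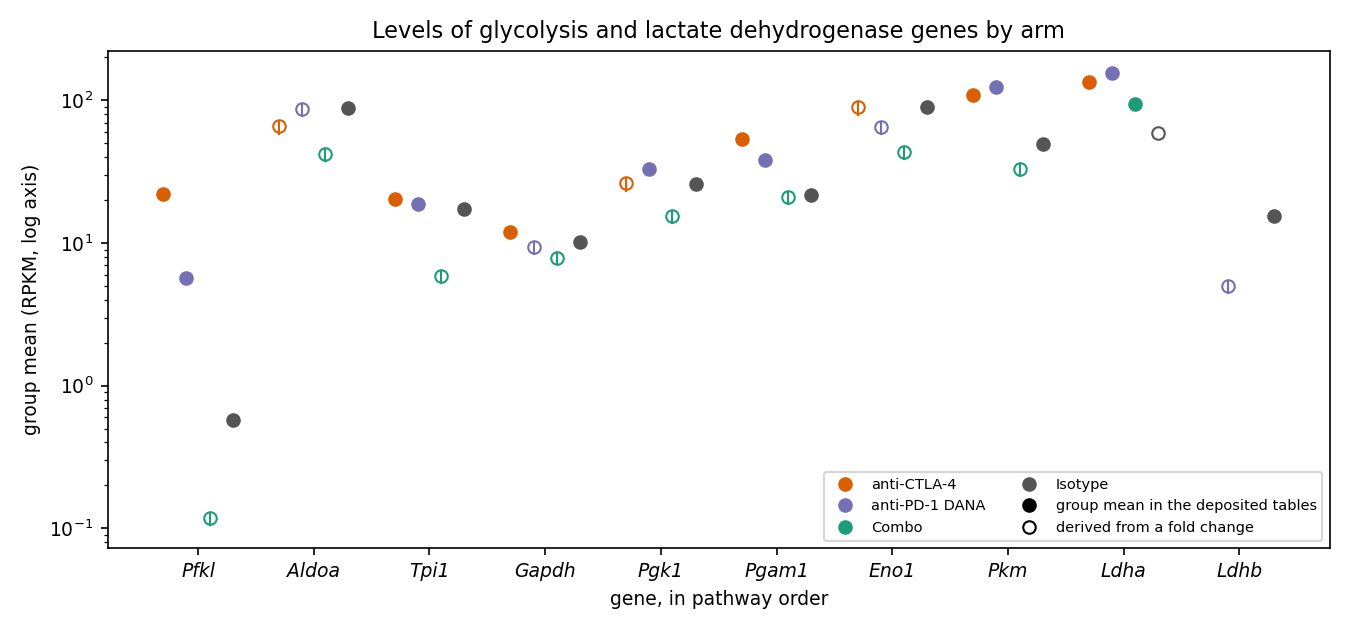
Group means in RPKM on a log axis for the 10 genes in the single-antibody arms, Combo and Isotype; filled points are means shown in the deposited tables and open points are derived from a fold change. Vertical lines give the 95% range of the derivation for treated arms, and for Ldha in Isotype only the range of the estimates from the tables. Pkm and Ldha stand highest in the single-antibody arms, at 109 and 135 RPKM in anti-CTLA-4 and 123 and 155 in anti-PD-1 DANA, Pfkl spans more than any other gene shown in all 4 arms, and Ldhb has no point for anti-CTLA-4 and Combo.

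Ldha (chromosome 7, 46841475 to 46855627), whose subunit favours lactate, was the most abundant of the 10 genes in every treated arm. It had 135 RPKM in anti-CTLA-4, 155 in anti-PD-1 DANA and 94.5 in Combo, against a derived 58.9 RPKM in Isotype (58.9 to 59.0 from the 3 tables). Ldha was the 1 member with a positive log2 fold change in Combo. The values were 0.24 ± 0.67, 0.58 ± 0.67 and 0.58 ± 0.67 under anti-CTLA-4, anti-PD-1 DANA, then Combo in the authors' deposited tables, with adjusted p = 1 each. On library size scaling they were 1.19, 1.39 and 0.68, and none passed there either.

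Ldhb (chromosome 6, 142490249 to 142507957) encodes the partner subunit. It fell by 8.02 ± 1.97 on the log2 scale after anti-CTLA-4 (adjusted p = 0.0101) and by 7.77 ± 1.97 after Combo (adjusted p = 0.00793) in the authors' deposited tables. After anti-PD-1 DANA its value was -2.43 ± 1.92 (adjusted p = 1) in the authors' deposited table. Its mean was a derived 5.04 RPKM (4.48 to 5.39) in anti-PD-1 DANA, against 15.4 RPKM in Isotype, while in anti-CTLA-4 and Combo it lay below that of Isotype and is not shown in the tables. The fold changes of these scarce arms depend on the authors' fit and are given on the log2 scale only.

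The Isotype level of Ldhb came almost wholly from 1 library. Recovered reads were 1723, 20 and 0 in the 3 Isotype libraries, or 45.8, 0.52 and 0 RPKM, so that 1 library gave 98.9% of the arm's level. A count of 0 allows up to 0.0581 RPKM in that library, for counting error only. Without the high library the Isotype arm would hold 20 reads of Ldhb, and a test without it could not be run from these tables, so its part in both calls was not tested. Per length, Ldhb made up a derived 3.15% of both subunit genes' RPKM in anti-PD-1 DANA, against 20.8% in Isotype. The Isotype share rests on the same high library. Without it the Isotype mean of Ldhb would be 0.26 RPKM, below the derived 5.04 RPKM of anti-PD-1 DANA. Between treated arms, from the authors' fold changes, anti-CTLA-4 against anti-PD-1 DANA gave -5.59 ± 1.95 (unadjusted p = 0.00409) and Combo against anti-PD-1 DANA -5.34 ± 1.95 (unadjusted p = 0.00604), neither of which held after adjustment over all genes (adjusted p = 1 and 0.532).

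The wider pathway was read from lists of genes that feed, branch from or regulate these steps. Of 13 tested genes of glucose entry and early glycolysis none was called in any comparison, with 5, 4 and 4 at an unadjusted p under 0.05 after anti-CTLA-4, after anti-PD-1 DANA and after Combo in the authors' test. Slc2a1, the glucose transporter GLUT1, had log2 fold changes of -2.80, -1.21 and -2.14 in the authors' deposited tables, and Slc2a3, the transporter GLUT3, 3.09, 3.38 and 0.25. Hk1 and Hk2, the hexokinases, stood at -1.58, -1.45 and -2.12, and at -0.91, -0.53 and 1.95, in the same order in the authors' deposited tables.

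Among 9 tested isoenzymes of late glycolysis only Pklr, the liver and red cell pyruvate kinase, was called, lower after anti-PD-1 DANA (-10.74, adjusted p = 0.0428) and after Combo (-7.61, adjusted p = 0.0489) in the authors' deposited tables. After anti-CTLA-4 Pklr was not called, at -10.83 (adjusted p = 0.0608) per the authors' deposited table. All 357 reads of Pklr in Isotype came from 1 library, and the other 2 Isotype libraries had 0, which allows up to 0.0378 and 0.0282 RPKM for counting error only. Erythroid markers, since red cells are known to express Pklr, summed to 18.5 RPKM in anti-CTLA-4, 0.0571 in anti-PD-1 DANA, 3.11 in Combo and 0.0686 in Isotype, with 4 of 7 at 0 and none called. Each of these sums except that of anti-CTLA-4 rests in part on derived means.

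Of 16 tested genes for transport of lactate and pyruvate and for pyruvate dehydrogenase, 1 was called higher after anti-CTLA-4, 0 after anti-PD-1 DANA (2 at an unadjusted p under 0.05) and 3 lower after Combo. The gene called higher was Pdk3, a kinase that turns pyruvate dehydrogenase off, at 5.91 ± 1.61 (adjusted p = 0.0253) per the authors' deposited table. Pdk3 had 16.3, 7.04 and 17.9 RPKM in the anti-CTLA-4 libraries, against 0.0163, 0.303 and 0.0594 RPKM in the Isotype libraries, with no overlap. In anti-PD-1 DANA it had 8.56, 1.01 and 11.2 RPKM, also above every Isotype library. The log2 fold change there was 5.06 (adjusted p = 0.0798) in the authors' deposited table. For both arms the exact two-sided permutation p against Isotype was 0.1, the smallest that 3 against 3 libraries allow. Combo stood at -0.23 for Pdk3 in the authors' deposited table (adjusted p = 1), so that this gene, like Pfkl, had its higher values in the single-antibody arms.

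The genes called lower in Combo were Mpc1, a subunit of the mitochondrial pyruvate carrier, at -4.72 ± 1.46 (adjusted p = 0.0468), Pdk2, another pyruvate dehydrogenase kinase, at -8.98 ± 2.11 (adjusted p = 0.00368), and Pdp2, a phosphatase that turns the enzyme back on, at -6.34 ± 1.80 (adjusted p = 0.0227) per the authors' deposited table. No library values were recovered for Pdk2 and Pdp2, so whether their Isotype levels rest on 1 library could not be seen. Mpc1 had 34.6, 4.70 and 21.1 RPKM in the anti-CTLA-4 libraries and 15.5, 11.2 and 14.0 RPKM in those of anti-PD-1 DANA, against 0.0401, 17.1 and 22.9 RPKM in Isotype. Its derived mean in Combo was 0.544 RPKM, against 13.3 RPKM in Isotype. Mpc2, its partner subunit, had -4.18 in Combo (adjusted p = 0.2) in the authors' deposited table.

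Branch pathway genes gave 1 call in 12 tested, Rpe, ribulose phosphate epimerase of the pentose phosphate pathway, lower after Combo at -6.40 ± 1.58 (adjusted p = 0.00603) per the authors' deposited table. In Isotype 99.5% of the Rpe level came from 1 library. Of 14 tested regulators Vhl was called higher after anti-CTLA-4, at 6.03 ± 1.64 (adjusted p = 0.0242), and after Combo, at 7.77 ± 1.64 (adjusted p = 0.00094), per the authors' deposited tables. VHL marks the hypoxia factor HIF-1 alpha for destruction, once prolyl hydroxylases such as EGLN2 have modified it. Egln2 was called higher after Combo at 4.86 ± 1.48 (adjusted p = 0.0414) per the authors' deposited table, as was Foxk2, a forkhead factor linked to glycolytic gene expression, at 6.86 ± 1.70 (adjusted p = 0.00611). Prkaa1, a catalytic subunit of the energy sensor AMPK, was called lower after Combo at -5.57 ± 1.59 (adjusted p = 0.0235) per the authors' deposited table, with no library values recovered.

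Vhl in Combo rested largely on 1 library, at 26.5 RPKM against 1.02 and 2.40 in the other 2, which is 88.6% of the arm's level. Without that library its Combo mean would be 1.71 RPKM, against 9.97 RPKM with it. Egln2 was at 7.64, 29.1 and 9.99 RPKM in the Combo libraries, with a mean of 8.81 RPKM without the highest and 15.6 RPKM with it. Foxk2 was at 3.604, 0.0297 and 13.2 RPKM in Combo, where 1 library gave 78.4% of the level and the mean without it would be 1.82 RPKM, against 5.61 RPKM with it. These calls could not be tested without those libraries. The means of the single-antibody arms also lay above the derived Isotype means for these genes, but not every library did. In anti-PD-1 DANA 1 library gave 72.1% of the Egln2 level, 78.7% of Foxk2 and 82.2% of Vhl. In anti-CTLA-4 these shares were 46.6%, 66.1% and 59.3%. The lowest anti-PD-1 DANA library had 0.0335 RPKM of Egln2 and 0.0284 of Foxk2, below the derived Isotype means. Egln2 had 10.7 RPKM in anti-CTLA-4 and 9.40 in anti-PD-1 DANA, against a derived 0.50 in Isotype. Foxk2 had 3.80 and 2.83 RPKM in the same arms, against a derived 0.0446, and was not called there, nor was Egln2. Vhl had 5.06 and 0.82 RPKM, against a derived 0.0413, and was not called after anti-PD-1 DANA. Hif1a itself, with log2 fold changes of -1.51, -1.26 and -2.17 in the authors' deposited tables, and Myc, at -0.49, -1.40 and -1.33, were not called, and both encode factors known to drive glycolytic genes. No call is read as particular to these lists: 4.23%, 3.75% and 7.53% of all tested genes were called after anti-CTLA-4, after anti-PD-1 DANA and after Combo.

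**Figure D4:**
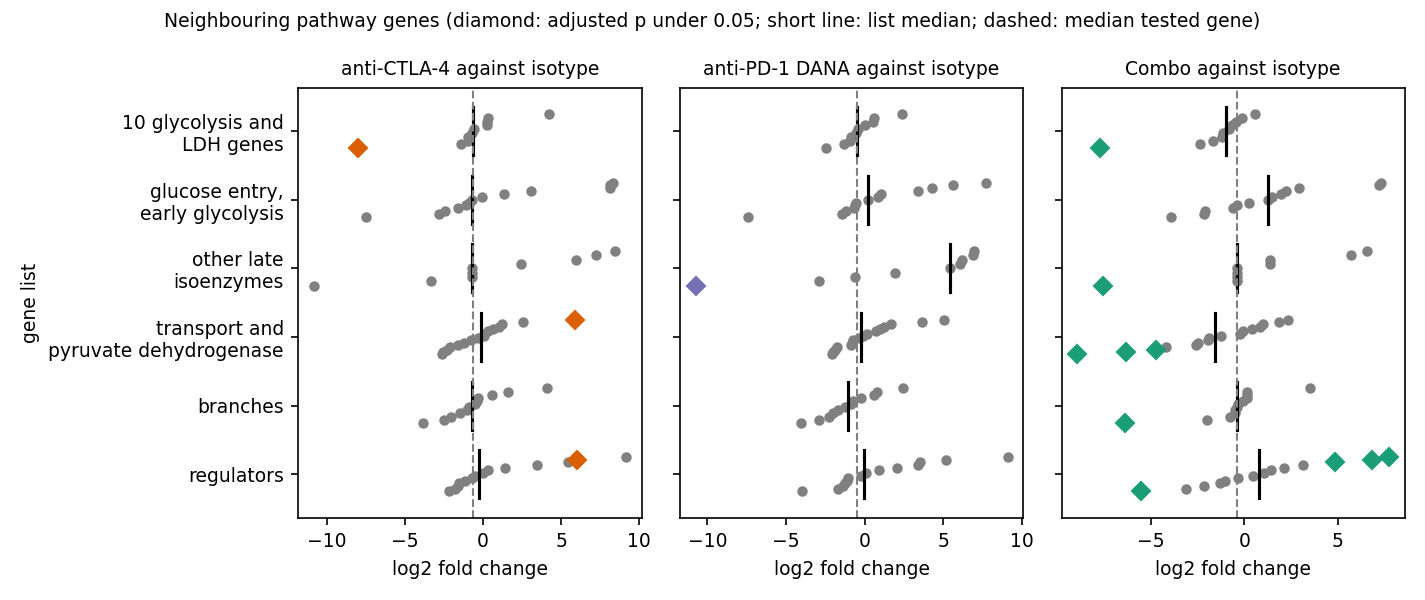
Log2 fold change of each tested gene in the 10-gene set and in the 5 neighbouring lists, by treatment against Isotype in the authors' deposited tables; diamonds are called genes, short lines are list medians and the dashed line is the median tested gene. Ldhb at -8.02 and -7.77, Pdk2 at -8.98 and Vhl at 7.77 are among the called genes far from the dashed line.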

How the data were processed

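CLC Genomics Workbench did the alignment and quantification, per the labels' protocols. The build was GRCm38.p5, per the submitters' processing notes. Libraries came from 0.25 ng of RNA with 21 cycles of amplification. The authors deposited larger group means (RPKM, a unit read from their values), log2 fold changes, signed fold changes (a score with values below 0), and p-values; the model and annotation release they used are not stated in these sources. Their tables were taken as deposited, with an adjusted p under 0.05 as a call, because they hold no values per library. The members and lists were chosen with earlier results of these data known, and the rule for named genes was all 10 members plus each called gene of the wider lists. Genes named beyond that rule (Pfkp, Pfkm, Slc2a1, Slc2a3, Hk1, Hk2, Mpc2, Hif1a, Myc, Lyz2, Adgre1, C1qa, Mpeg1, Fcgr3, Csf1r, Pgk1-rs7) were chosen after their values were seen.

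Standard errors were obtained by dividing the size of a log2 fold change by the normal deviate of its p-value, which assumes a Wald test. Differences between treated arms used those errors, from equal variances where the 3 errors lie within 5% of each other (57.4% of tested genes) and their sum otherwise, with Benjamini-Hochberg adjustment over 48709 genes. Library sizes came from group means of genes with 1 read (RPKM deposited to 10 decimals), and whole reads per library were solved with exon lengths of GENCODE M21. For Pfkl and Tpi1 the 3 and 1 highest-numbered transcripts had to be left out to obtain whole reads. A solution was used where chance allowed at most 0.05. As a check, 92.0% of 400 low Isotype means were solved, against 1.25% with lengths off by 1 base. That check used Isotype alone and 1 exon length per gene, while several lengths could be tried for the named genes. Of the 10 members only Pfkl, Tpi1 and Ldhb had an accepted solution. For the other members the share of single libraries could not be seen. Beside the solution found, up to 0.494 further solutions per group mean were expected by chance (Pfkl in anti-CTLA-4). Libraries so recovered cannot be tied to replicate numbers. The shift to library size scaling used 418, 229 and 177 genes of at least 5 RPKM in Isotype. Genes sharing sequence were found with blastn 2.17.0. Steps were tested on simulated data, in Python 3.11.15 with scipy 1.17.1. Upstream sequences are from RefSeq, and 10 of 10 genes matched.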

Additional observations from a re-analysis of the deposited data

How the results depend on the processing

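Over 223 values recomputed under other settings, 187 kept their direction and their side of the threshold, 17 passed only under the alternative, 3 passed only as reported and 16 changed sign. Of the 10 genes, 1 was called after anti-CTLA-4 as deposited, 3 when adjusted over tested genes (Pfkl, Aldoa, Ldhb), 3 with a larger mean of at least 1 or 5 RPKM, 2 with library size scaling, centring on the median tested gene or centring on genes of like level, and 0 with Bonferroni adjustment. After anti-PD-1 DANA 0 were called as deposited and 1 (Eno1) when adjusted over tested genes or with either RPKM minimum. After Combo 1 was called as deposited, 3 with either RPKM minimum and 0 with Bonferroni. Combo against anti-CTLA-4 called 1, and 0 with the upper bound of the error. Combo against anti-PD-1 DANA called 0, and 1 with library size scaling, an alternative chosen after seeing the data. These settings differ by construction. Fewer genes are tested under the minimums, and adjustment over tested genes counts 17833 genes in place of 48709 with the same p-values. The minimums apply to the larger of the 2 group means, so a gene can pass through 1 high group alone. Pfkl passed after anti-CTLA-4 only through its treated mean, and was left out after Combo, where 9 members remained. Calls under the minimums are therefore not separate support. Bonferroni adjustment is stricter, and the upper bound uses a larger error. Scaling and centring shift each fold change and keep its error.

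Changes of sign were seen among genes that were not called. With library size scaling the log2 fold changes after anti-CTLA-4 were 0.38 for Tpi1, 0.25 for Gapdh and 0.0035 for Pgk1, and after anti-PD-1 DANA 0.26 for Tpi1 and 0.39 for Pgk1. Centred on the median tested gene they were 0.056 for Tpi1 after anti-CTLA-4, 0.026 for Pgk1 after anti-PD-1 DANA and 0.28 for Pgam1 after Combo. Centred on genes of like level they were 0.43 for Tpi1 and 0.13 for Gapdh after anti-CTLA-4, 0.54 for Tpi1, 0.10 for Gapdh and 0.46 for Pgk1 after anti-PD-1 DANA, and 0.47 for Gapdh, 0.025 for Pgk1 and 0.74 for Pgam1 after Combo. The library size values use a median shift that differs among genes by more than 0.0035, so that sign of Pgk1 is not settled. For Tpi1 the shown group means gave log2 ratios of 0.23 for anti-CTLA-4 and 0.11 for anti-PD-1 DANA over Isotype.

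No paired analysis was possible because the tables hold no values per library and the recovered libraries carry no replicate number. Leaving out each replicate, and count models with other normalizations, were not run for the same reason.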
